A study of Mus musculus with 6 samples.

Results

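Janus kinases (JAKs) and the transcription factors they activate, the signal transducers and activators of transcription (STATs), were compared between floxed control and R274X mutant LSK cells of mouse bone marrow. The set holds 9 genes chosen by name, 4 kinases (Jak1, Jak2, Jak3 and Tyk2) and 5 factors (Stat3, Stat4, Stat5a, Stat5b and Stat6), out of 54532 genes in the files. All 9 were found by symbol and all 9 passed the count filter, among 14608 genes tested. Stat2 lies outside the set and is given only for comparison.

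LSK cells are marrow cells that lack lineage markers and carry Sca-1 and c-Kit, a sort gate rich in blood stem and multipotent progenitor cells. Every library is labelled Phf6fl-R274X/Y, a conditional R274X allele of the X-linked gene Phf6 in hemizygous form, and 3 libraries carry that allele alone (controls) while the other 3 also carry Vav1-Cre (R274X libraries). The Vav1 promoter drives Cre broadly in blood cells, no control carries Cre, and the effect of Cre itself cannot be told apart from that of the allele. The labels state no age or pooling and do not say that replicates came from separate animals, so each p-value reflects only how far these libraries vary, and that variation may be technical. Phf6 RNA measured 31.77, 29.59 and 33.53 CPM (counts scaled to library size by TMM) in the controls and 8.47, 10.25 and 8.29 CPM in the R274X libraries (log2 fold change -1.81, edgeR adjusted p = 6.67e-06), so it was lower in every library labelled with Cre. Total counts per library were between 15406314 and 18106065, and each of the 9 genes had at least 343 and at most 3496 counts in a library. In bulk RNA, fewer cells of a type and less RNA per cell cannot be told apart.

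JAKs sit on the inner tails of cytokine receptors. When a cytokine joins the receptor chains, the kinases phosphorylate each other, the receptor and a docked STAT, which then pairs with another STAT, enters the nucleus and binds DNA. In blood progenitors this route carries the IL-3 signal through JAK2 to STAT5, and in lymphoid cells it carries the signals of the interleukins that use the common gamma chain through JAK1 and JAK3.

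The genes lie on 7 chromosomes, and 3 of the STAT genes form a cluster (coordinates of GRCm38, GENCODE release M21). On chromosome 11, Stat5b (100780731 to 100850724, minus strand) and Stat5a (100859351 to 100885169, plus strand) point away from each other with 8626 bases between their starts. Stat3 (100885098 to 100939540, minus strand) meets Stat5a tail to tail, and the whole cluster spans 158.8 kb. Jak1 is on chromosome 4 (101152367 to 101265282), Jak2 on chromosome 19 (29251828 to 29313080), Jak3 on chromosome 8 (71676296 to 71690575) and Tyk2 on chromosome 9 (21104068 to 21131243). Stat4 is on chromosome 1 (51987148 to 52107189) and Stat6 on chromosome 10 (127642986 to 127660957). All 9 are protein-coding.

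Stat5a and Stat5b are near copies, and this bears on how far their read counts can be separated. Their longest annotated coding sequences were identical at 90.8% of 2291 aligned bases, while every other pair within the JAKs or within the STATs was between 58.2% and 65.3%. The longest run without a difference was 324 bases long (coding bases 571 to 894 of both genes). The first lines below show the start of that run in both genes, and the next lines show the stretch of 100 bases in which they differed most, at 28 positions. Capitals mark the bases that differ between them.
Stat5a, coding bases 551 to 670: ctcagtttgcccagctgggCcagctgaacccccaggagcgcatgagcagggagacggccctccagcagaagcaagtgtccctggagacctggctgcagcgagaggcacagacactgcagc
Stat5b, coding bases 551 to 670: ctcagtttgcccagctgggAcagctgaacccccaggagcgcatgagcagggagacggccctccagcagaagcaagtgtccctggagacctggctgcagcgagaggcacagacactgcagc
Stat5a, coding bases 65 to 164: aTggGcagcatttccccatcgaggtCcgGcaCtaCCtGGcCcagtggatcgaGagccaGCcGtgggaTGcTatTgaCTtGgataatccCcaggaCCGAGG
Stat5b, coding bases 65 to 164: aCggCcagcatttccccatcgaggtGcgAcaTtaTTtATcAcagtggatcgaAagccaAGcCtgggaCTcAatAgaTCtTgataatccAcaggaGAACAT
A read inside the first stretch, past its single difference, matches both genes equally, and a read in the other stretch can be placed. Of the 50-base words in the annotated transcripts, 608 were common to both genes, which is 10.98% of those of Stat5b, and 8.52% of those of Stat5a occur in some other gene. No label says how the authors assigned such reads, so the division between these genes is uncertain and their sum is given as well.

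For the other members the shared words had other sources. Jak1, Jak2 and Stat6 had 0 such shared words and Stat3 had 0.55%. The shared words of Jak3 (7.21%), Tyk2 (7.52%) and Stat4 (21.7%) came mostly from overlapping annotated genes of few reads, namely Insl3 (5 to 42 counts per library), the antisense gene 1700084C06Rik (0 to 1) and Gm28177 (0 to 7). Stat3 and Stat5a share 72 exonic bases on opposite strands. No label says whether the counting used strand, so reads of these overlaps cannot be assigned to one side.

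In the comparison of R274X with control libraries, 4 of the 9 genes fell: Jak3, Stat3, Stat5a and Stat5b (edgeR quasi-likelihood test, Benjamini-Hochberg adjusted p under 0.05 over all tested genes). None rose by edgeR, DESeq2 or limma-voom, and none had a positive change at an unadjusted p under 0.05. Over all tested genes, 7.89% were called lower and 10.1% higher. The log2 fold change was below 0 for all 9, with a median of -0.25 beside -0.02 over all tested genes. Longer genes tended to lower values: all 9 lie in deciles 6 to 10 of exonic length, whose medians ran from -0.02 to -0.14. With offsets for gene length the same number, 4, were called lower, beside 6.2% of all tested genes. The log2 fold changes of Jak1, Tyk2 and Stat6 were then -0.15, -0.01 and -0.04. For 6 of the 9 the CPM ranges of control and R274X libraries were apart, all lower in the R274X libraries, beside 18.3% of all tested genes. With library totals in place of TMM scaling, where the median of all tested genes was -0.19, 7 of the 9 were called lower, beside 21.6% of all tested genes. Over all tested genes, the share of calls that were higher was 56.1% with TMM, 22.2% with library totals and 45.9% with upper-quartile scaling.

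**Figure D1:**
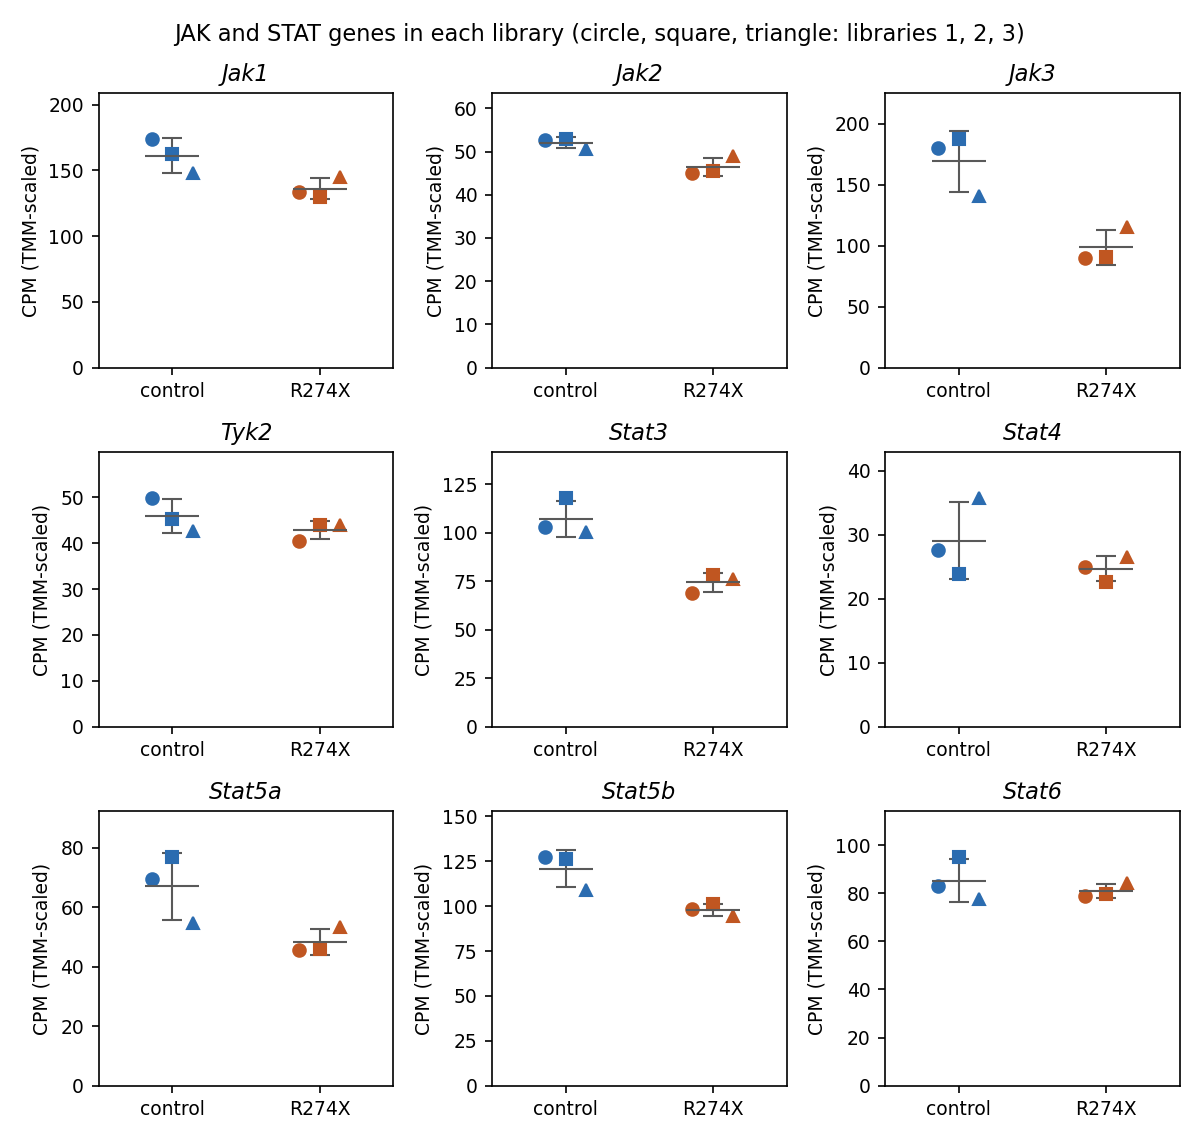
CPM (TMM-scaled, vertical axis from 0) of each JAK and STAT gene in the 3 control (blue) and 3 R274X (orange) libraries, with the mean and SD of each group as bars. The groups are apart for Jak1, Jak2, Jak3, Stat3, Stat5a and Stat5b and overlap for Tyk2, Stat4 and Stat6. Of the genes with groups apart, control 3 and R274X 3 are the closest pair for Jak1, Jak2, Jak3 and Stat5a.

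Jak3, the kinase that pairs with the common gamma chain of lymphoid interleukin receptors, fell most among the 9. It measured 179.8, 187.4 and 140.4 CPM in the controls and 89.8, 91.1 and 115.0 CPM in the R274X libraries. The lowest control (control 3) stood above the highest R274X library (R274X 3). Expression was 1.72-fold lower (log2 fold change -0.78, SE 0.134, edgeR adjusted p = 0.00661). The call held whichever library was left out, with log2 fold changes from -0.91 to -0.71.

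Jak1, which serves most cytokine receptor families, measured 173.7, 162.4 and 147.8 CPM in controls and 133.2, 129.8 and 145.3 CPM in R274X libraries. The groups did not overlap, but control 3 and R274X 3 were separated by only a small gap, and the gene missed the threshold (log2 fold change -0.25, SE 0.080, edgeR adjusted p = 0.0514). Without control 3 or R274X 3 it passed (-0.32 with adjusted p = 0.0336, and -0.29 with adjusted p = 0.0214).

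Jak2, the kinase of the erythropoietin and IL-3 receptors, measured 52.7, 52.9 and 50.7 CPM in controls and 44.95, 45.43 and 48.9 CPM in R274X libraries. These are tight groups that did not overlap, with a difference too small to pass (log2 fold change -0.17, SE 0.079, edgeR adjusted p = 0.17). Tyk2, the kinase of type I interferon and IL-12 receptors, measured 49.8, 45.3 and 42.7 CPM against 40.6, 44.0 and 44.0 CPM. Its groups overlapped (log2 fold change -0.10, SE 0.088, edgeR adjusted p = 0.472).

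Stat3, the factor downstream of gp130 cytokines and of G-CSF, had the smallest p-value of the set. Its levels were 103.0, 117.8 and 100.6 CPM in controls and 68.9, 78.4 and 76.0 CPM in R274X libraries. All controls were above all R274X libraries by a gap wider than the range within either group. It was 1.44-fold lower (log2 fold change -0.53, SE 0.083, edgeR adjusted p = 0.00151), and it was called in all 19 alternative settings, with log2 fold changes from -0.70 to -0.41. Stat3 has 9527 exonic bases and belongs to the longest decile of tested genes, of which 16.3% were called lower, and with offsets for gene length its log2 fold change was -0.41.

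Stat5a and Stat5b, the factors of IL-3 and many other cytokines, both fell. Stat5a measured 69.7, 76.9 and 54.6 CPM in controls and 45.6, 46.1 and 53.3 CPM in R274X libraries, so that control 3 and R274X 3 nearly met. It was 1.39-fold lower (log2 fold change -0.47, SE 0.122, edgeR adjusted p = 0.0233). Stat5b measured 127.3, 126.2 and 109.2 CPM against 98.2, 101.3 and 94.6 CPM, with control 3 again the lowest control. It was 1.23-fold lower (log2 fold change -0.30, SE 0.079, edgeR adjusted p = 0.0199).

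The Stat5 calls depended on some of the libraries. Without control 1, control 2, R274X 1 or R274X 2, in that order, the edgeR adjusted p of Stat5a was 0.0839, 0.084, 0.12 and 0.0971. That of Stat5b was 0.0719, 0.0703, 0.0637 and 0.0516. Only 2 members, Jak3 and Stat3, were then called, beside 3.37% to 4.17% of all tested genes called lower. Without control 3 or R274X 3 both Stat5 genes stayed called (edgeR adjusted p = 0.00512 and 0.014 for Stat5a, 0.00954 and 0.0336 for Stat5b). With the counts of both genes added, the levels were 197.0, 203.1 and 163.8 CPM in controls and 143.8, 147.4 and 147.8 CPM in R274X libraries. The sum does not depend on which gene a shared read was given to, provided each such read was counted once. No label says whether it was. The sum was 1.28-fold lower (log2 fold change -0.36, SE 0.085, edgeR adjusted p = 0.0123). Stat5a made up 29.8%, 32.1% and 28.0% of the summed FPKM of both genes in controls and 26.5%, 26.1% and 30.4% in R274X libraries. These shares overlapped (means 30.0% and 27.7%, exact two-sided permutation p = 0.3, n = 3 each).

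Stat4, the factor of IL-12 signalling, measured 27.7, 23.9 and 35.7 CPM in controls and 25.0, 22.7 and 26.5 CPM in R274X libraries. Control 3 was well above the other libraries, and the rest lay in a single range (log2 fold change -0.24, SE 0.1397, edgeR adjusted p = 0.273). Stat6, the factor of IL-4 and IL-13 signalling, measured 83.2, 95.0 and 77.5 CPM against 78.8, 79.9 and 84.4 CPM. It had the smallest change of the 9 (log2 fold change -0.07, SE 0.084, edgeR adjusted p = 0.589).

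Stat2, an interferon-signalling factor outside the set, did not pass. It was at 28.0, 36.6 and 30.9 CPM against 30.6, 32.1 and 34.0 CPM (log2 fold change 0.02, edgeR adjusted p = 0.93), with the sign reversed under library-total and upper-quartile scaling (-0.15 and -0.03) and without a count filter (-0.001).

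**Figure D2:**
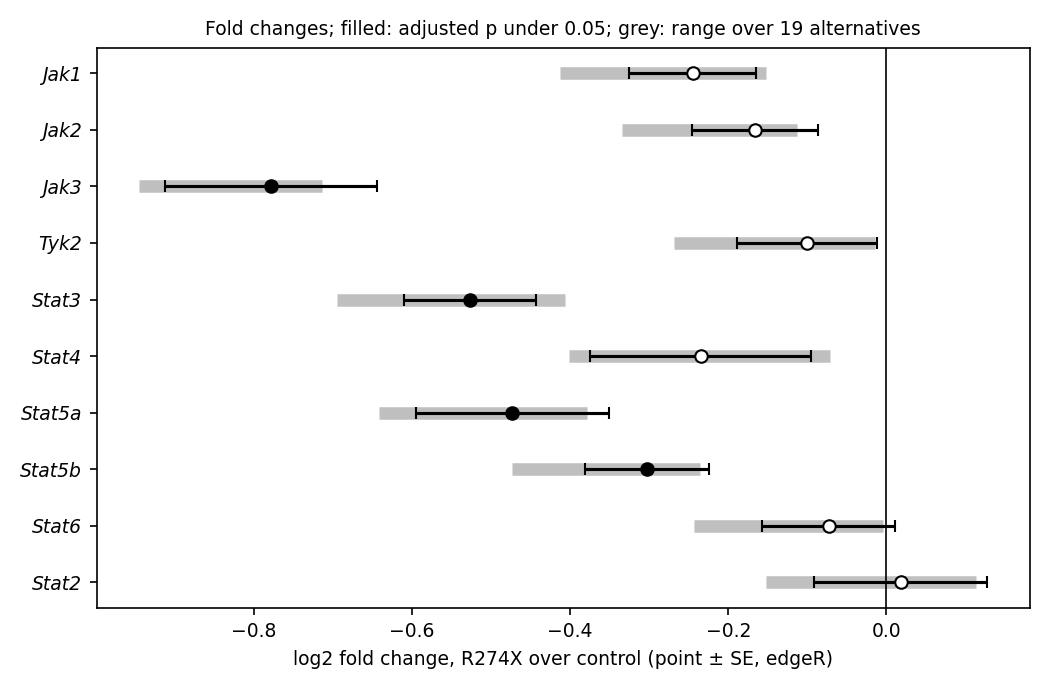
Log2 fold change of R274X over control for each JAK and STAT gene and Stat2 (horizontal axis, point with SE from edgeR, filled where the adjusted p is under 0.05), with a grey bar for the range over 19 alternative settings. The grey bars of all 9 members lie below 0, and that of Stat2 crosses 0.

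Levels were compared between genes on the length-scaled FPKM values. These divide by the merged exonic length of all annotated transcripts of a gene (9527 bases for Stat3, 5030 for Jak2). Orders and shares between genes therefore depend on that annotation. In controls Jak3 was the most abundant at 31.3 ± 4.52 FPKM (SD, n = 3), above every value of the next gene. Jak1 (22.1 ± 1.73), Stat5b (21.6 ± 1.72) and Stat6 (19.2 ± 1.90) followed with ranges that overlapped from each to the next. Stat3 (11.1 ± 0.905), Jak2 (10.3 ± 0.197) and Stat5a (9.31 ± 1.53) came next. The lowest were Stat4 (7.46 ± 1.59) and Tyk2 (6.63 ± 0.514), whose ranges overlapped. Of genes next to each other in this order, control ranges were apart only between Jak3 and Jak1, Stat6 and Stat3, and Stat3 and Jak2.

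In the R274X libraries the top of this order closed up. Jak1 (18.8 ± 1.16 FPKM, SD, n = 3), Jak3 (18.4 ± 2.68), Stat6 (18.3 ± 0.715) and Stat5b (17.6 ± 0.585) had ranges that overlapped from each to the next. Jak2 (9.20 ± 0.446) stood above Stat3 (7.79 ± 0.527), the reverse of their order in controls, and the ranges of that pair were apart in both groups. In controls the gap was small, with a lowest Stat3 value of 10.53 FPKM and a highest Jak2 value of 10.4 FPKM. Stat5a (6.75 ± 0.612), Stat4 (6.37 ± 0.501) and Tyk2 (6.22 ± 0.299) were lowest.

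The make-up of each family differed in the same sense. Jak3 made up 44.6%, 46.9% and 41.7% of the summed JAK FPKM in controls and 33.5%, 33.8% and 37.2% in R274X libraries. The shares of Jak1 (31.5 ± 1.22% to 35.8 ± 0.996%), Jak2 (14.7 ± 1.15% to 17.5 ± 0.599%) and Tyk2 (9.45 ± 0.537% to 11.9 ± 0.816%) were higher in every R274X library than in any control. Among the STATs, Stat3 went from 16.2 ± 0.633% to 13.7 ± 0.730% and Stat6 from 27.9 ± 1.23% to 32.2 ± 0.469% (SD, n = 3 each), both without overlap. For these 6 genes the exact two-sided permutation p was 0.1, the smallest that 3 against 3 libraries allow, and 0.15 adjusted over the 9 shares, so none could pass. The shares of Stat4 (exact p = 0.9), Stat5a (0.2) and Stat5b (0.7) overlapped between groups. Shares of a family are tied to each other, so a lower share of Jak3 raises the others.

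**Figure D3:**
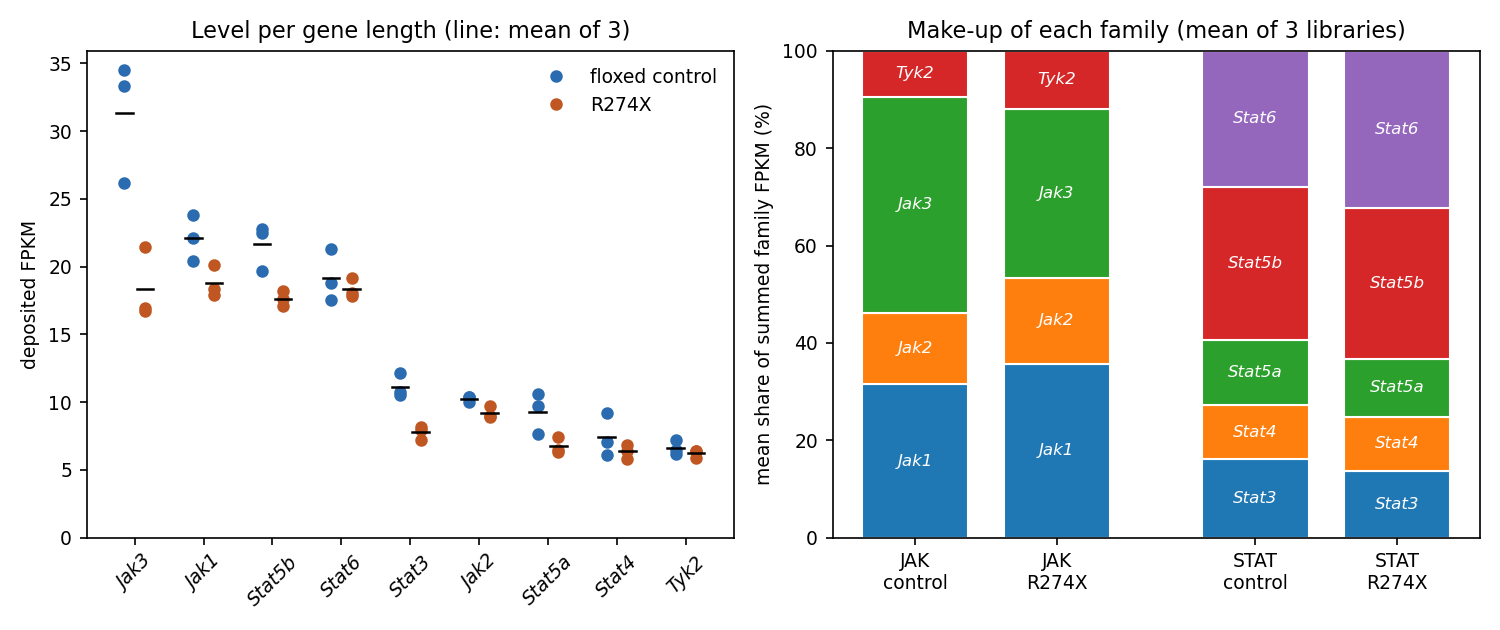
Left, deposited FPKM of each gene (points for libraries, lines for means of 3) in control (blue) and R274X (orange) libraries, ordered by the control mean. Right, mean share of each gene in the summed FPKM of the 4 JAKs or the 5 STATs, in percent, where the Jak3 share goes from 44.4% in controls to 34.8% in R274X libraries.

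Both family sums were lower in the R274X libraries. The 4 kinases added up to 74.8, 73.5 and 62.8 FPKM in controls and 49.8, 50.3 and 57.7 FPKM in R274X libraries. The 5 factors added up to 69.1, 72.6 and 64.6 FPKM against 55.4, 56.8 and 58.5 FPKM. Neither sum overlapped between groups, and the ratio of means was 0.748 for the kinases and 0.828 for the factors. The mean kinase sum went from 70.3 to 52.6 FPKM. Within it Jak3, the only kinase called, went from 31.3 to 18.4 FPKM.

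The genes with the profile most like each called member over the 6 libraries, by root mean square difference of centred log2 CPM among 10245 genes, were of mixed kinds. For Jak3 they were Ikbke, a kinase, Fut7, a fucosyltransferase, and Plppr3 (differences of 0.061 to 0.066). For Stat3 they were Zfp799, Dnah8 and St3gal1, a sialyltransferase (0.032 to 0.045). For Stat5a they were Rab31, Arhgef12 and Il11ra1, the IL-11 receptor chain (0.052 to 0.060), and for Stat5b they were Dmac2, Med13 and Bag2 (0.025 to 0.034). Since nearness includes the difference between the groups, these values describe the libraries only.

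A motif bound by STAT dimers, TTCNNNGAA, which reads the same on both strands, was searched in the 250 bases before each annotated start (RefSeq, GRCm38.p6). All 9 genes had at least 1 window, 12 in all. None of the 12 windows held the motif, and 7.02% of all 32851 windows of that length did.

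The rest of the pathway did not share a direction. Of 99 further genes (mostly receptors, ligands, inhibitors and known targets), 82 were tested, 12 rose and 8 fell, and the median log2 fold change was -0.03. Leaving out 1 library at a time gave 7 to 11 rises and 3 to 12 falls. Among all tested genes, 10.1% rose and 7.89% fell.

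Of the 34 tested chains of cytokine receptors that use JAKs, 5 rose and 4 fell (14.7% and 11.8%). Among the falls were Il4ra, the IL-4 receptor chain (73.3 ± 8.65 to 54.7 ± 1.76 CPM), Csf2rb, the shared chain of the IL-3, IL-5 and GM-CSF receptors (50.8 ± 4.25 to 39.9 ± 4.30 CPM) and Il11ra1 (44.0 ± 7.11 to 33.0 ± 3.86 CPM; SD, n = 3 each). Their edgeR adjusted p were 0.00812, 0.0295 and 0.0451, and 0.0187, 0.0835 and 0.0537 with offsets for gene length. Il4ra stayed called whichever library was left out, while Csf2rb and Il11ra1 lost the threshold without R274X 1, R274X 2, control 1 or control 2 (adjusted p from 0.0721 to 0.127 and from 0.144 to 0.162).

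The receptor chains that rose had low control levels, except Ifngr2. Il13ra1, an IL-13 receptor chain, went from 3.01 ± 0.710 to 11.8 ± 1.39 CPM, Il5ra from 1.19 ± 0.391 to 3.69 ± 0.336 CPM, and Prlr, the prolactin receptor, from 4, 0 and 5 counts to 26, 36 and 24 counts. Il2rb, a chain of the IL-2 and IL-15 receptors, went from 9.23 ± 1.05 to 20.03 ± 6.78 CPM and Ifngr2 from 27.5 ± 1.44 to 37.0 ± 6.79 CPM (SD, n = 3 each). The calls of this pair depended on single libraries: Il2rb was lost without R274X 1 or any 1 control (edgeR adjusted p from 0.0797 to 0.111), and Ifngr2 without any 1 library other than R274X 3 (0.071 to 0.156). Ifngr2 and Il11ra1 were named after their values were seen.

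Among ligands, 11 of 25 were tested, 2 rose and none fell by edgeR, DESeq2 or limma-voom (1 fell at an unadjusted p under 0.05 by edgeR). The rises were Il10, from 13, 20 and 38 counts to 135, 152 and 114 counts, and Ifng, from 3, 11 and 4 counts to 43, 26 and 27 counts (edgeR adjusted p = 0.000344 and 0.00417). Both are made mainly by mature immune cells.

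Of 20 tested inhibitors of the pathway, 3 fell and 1 rose (15.0% and 5.0%, beside 7.89% and 10.1% of all tested genes). Socs3, the feedback inhibitor of gp130 and G-CSF signalling that STAT3 induces, fell from 74.3 ± 9.50 to 43.0 ± 6.64 CPM (log2 fold change -0.79, edgeR adjusted p = 0.00223). Cish, induced by STAT5, fell from 20.9 ± 3.18 to 15.1 ± 2.03 CPM (-0.47, adjusted p = 0.0389), and Cbl, a ubiquitin ligase, from 60.7 ± 3.97 to 45.7 ± 6.13 CPM (-0.41, 0.0156). Socs2, which STAT5 also induces, rose from 8.84 ± 1.06 to 21.2 ± 7.58 CPM (1.26, 0.0263; SD, n = 3 each). With offsets for gene length, Socs3 was the only inhibitor called lower, beside 6.2% of all tested genes. Cish and Cbl then missed the threshold (edgeR adjusted p = 0.0837 and 0.076). Socs3 held whichever library was left out. Cish was lost without control 2, control 3, R274X 2 or R274X 3 (adjusted p from 0.0681 to 0.15), Cbl without control 1, control 2, R274X 1 or R274X 2 (0.0652 to 0.0797), and Socs2 without R274X 1 or any 1 control (0.063 to 0.113).

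Of 21 known STAT targets, all tested, 4 rose and 3 fell (19.1% and 14.3%). Besides the SOCS and CISH genes, which are in both lists, Myc fell from 152.9 ± 7.50 to 91.3 ± 14.4 CPM (log2 fold change -0.74, edgeR adjusted p = 0.000855). Bcl2l1, which encodes the survival protein BCL-XL, rose from 33.9 ± 1.76 to 53.3 ± 3.85 CPM (0.65, adjusted p = 0.000619), and Ccnd3, encoding cyclin D3, from 340.8 ± 33.7 to 670.8 ± 109.0 CPM (0.98, 0.000942). Ccnd1 rose from 18.8 ± 1.03 to 24.3 ± 0.982 CPM (0.37, 0.0299; SD, n = 3 each), and lost the threshold without any 1 library (0.0575 to 0.12).

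**Figure D4:**
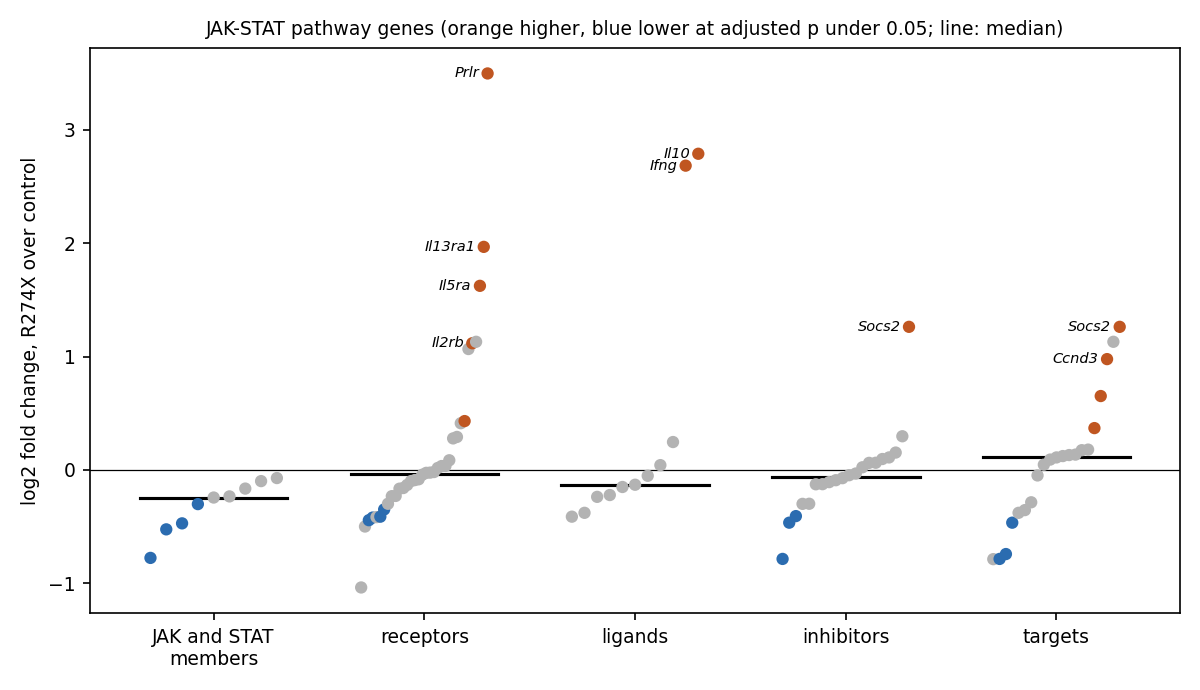
Log2 fold change of R274X over control (vertical axis) for the JAK and STAT members and the tested receptors, ligands, inhibitors and targets, each point a gene, with lines at the medians. The members are all below 0 (median -0.25), while the other lists spread to both sides with medians from -0.13 to 0.11.

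Markers of other cell types differed between the same libraries. Immunoglobulin genes took 0.65%, 0.29% and 1.18% of counts in controls and 6.85%, 7.95% and 4.45% in R274X libraries. Control 3 and R274X 3 were the closest pair in this share. Among members whose groups were apart, they were also the closest pair for Jak1, Jak2, Jak3 and Stat5a. For Stat3 and Stat5b the closest pair was control 3 and R274X 2 (100.6 and 78.4 CPM, 109.2 and 101.3 CPM). R274X 2 had the highest immunoglobulin share. A link between these pairs and that share was not tested. Summed over each list, B cell markers (7 of 17 tested rose, 0 fell) ran from 458 to 1028 CPM in controls and 1814 to 3637 CPM in R274X libraries, and plasma cell markers (5 of 8 rose) from 308 to 882 and 2061 to 4676 CPM. Macrophage and monocyte markers (11 of 20 rose) ran from 904 to 1228 and 2684 to 4519 CPM, and dendritic cell markers (8 of 12 rose) from 831 to 924 and 2011 to 2122 CPM. T and NK cell markers (14 of 21 rose, 1 fell) overlapped in their sum, 277 to 285 and 258 to 325 CPM, as did neutrophil markers (0 of 15 called), 18450 to 31200 and 14170 to 37090 CPM. No marker of these 6 lists was at 0 in any library.

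Erythroid markers (4 of 14 rose, 1 fell) ran from 1539 to 1835 and 2401 to 3718 CPM. Megakaryocyte markers (2 of 9 tested fell) ran from 169 to 229 and 111 to 153 CPM, with Gp1bb at 0 in all libraries and Gp6 at 0 in at least 1. Endothelial and stromal markers (1 of 7 tested rose, 2 fell) ran from 135 to 148 and 101 to 111 CPM, with Lepr, Pdgfra, Col3a1 and Adipoq at 0 in at least 1 library. Mast cell, basophil and eosinophil markers (2 of 12 tested fell) overlapped, 285 to 413 and 354 to 470 CPM, with Mcpt4 and Tpsab1 at 0 in at least 1 library. Of the markers of the sort gate, Kit was lower in R274X libraries (158.3 ± 12.8 to 96.7 ± 14.8 CPM, edgeR adjusted p = 0.00159) and Ly6a, encoding Sca-1, higher (141.7 ± 5.07 to 247 ± 15.6 CPM; SD, n = 3 each, 5.83e-05). The part of these cell types in the values of the JAK and STAT genes was not tested. With immunoglobulin genes left out of scaling and test, the log2 fold changes of Jak3, Stat3, Stat5a and Stat5b were -0.775, -0.52, -0.47 and -0.30, and all 4 were called. Only the immunoglobulin genes themselves are removed in that setting. JAK and STAT RNA from other cell types stays in the counts, so the setting cannot show the part of those cells.

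**Figure D5:**
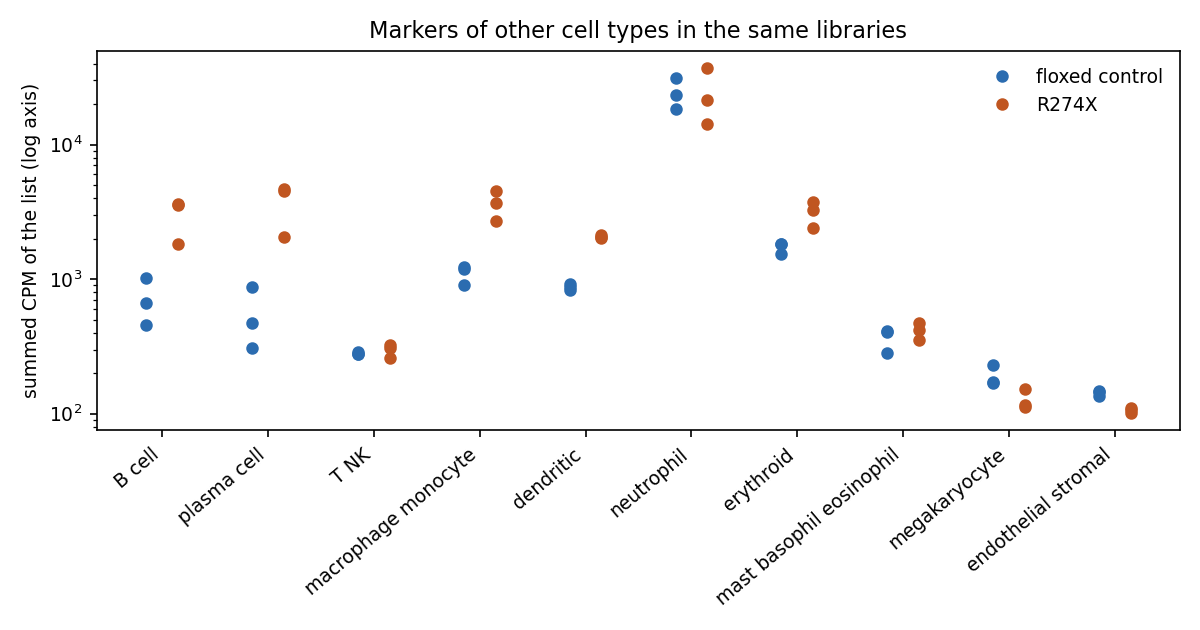
Summed CPM (log axis) of fixed marker lists of other cell types in the 3 control (blue) and 3 R274X (orange) libraries, each point a library. B cell, plasma cell, macrophage, dendritic and erythroid sums are higher in every R274X library than in any control, megakaryocyte and endothelial sums are lower, and T and NK, neutrophil and mast cell sums overlap.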

How the data were processed

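The authors deposited, per the file headers, whole-number read counts and FPKM values for 54532 Ensembl genes in each of 6 libraries. Per the submitters' processing notes, Bowtie and the build mm8 were used, while counting tool and annotation go unstated there. Of the identifiers 54409 matched a symbol, and coordinates are those of GENCODE M21 (GRCm38), whose merged exon lengths equal those implied by count and FPKM, to 0.01%, for 94.4% of genes with over 200 counts. The deposited FPKM values imply library sizes equal to median-ratio size factors, so they are already scaled between libraries.

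The counts, used unscaled as deposited, were tested across all genes with edgeR 4.0.16 in R 4.3.3 (TMM, default filter with minimum count 10, robust quasi-likelihood, Benjamini-Hochberg). SE is the log2 fold change over the root of F, and CPM uses the TMM factors. Alternatives were DESeq2 1.42.0, limma-voom 3.58.1, 3 scalings, 2 filters, no robust option, removal of immunoglobulin genes, length offsets, limma on log2 of the deposited FPKM with pseudocounts 1 and 0.1 (mean FPKM at least 0.5, or no filter), and leaving out each library. Summing Stat5a and Stat5b was added after the data were seen. Permutation tests were exact (SciPy 1.17.1). Scripts were tested on simulated data. Named genes were the members, Stat2, Phf6, up to 6 called genes per list with the smallest p, gate markers and the 3 nearest profiles of each called member. The members and lists were chosen with earlier results of these data known. Libraries are numbered here in accession order, the labels' own numbers are not shared between groups, and nothing was paired. Some results that the rule would name are not reported here.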

Additional observations from a re-analysis of the deposited data

How the results depend on the processing

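All 9 members stayed below 0 in each of the 19 planned settings, Stat3 was called in all of them, Jak3 in 18, and Stat5a and Stat5b in 12. With library totals only, the median of all tested genes moved by -0.17 and 901 genes were called higher and 3153 lower, with 7 members and 20 pathway genes lower. Jak1 (-0.41), Jak2 (-0.33) and Stat4 (-0.40) then passed and Stat2 was at -0.15, while Jak3 less the median of all genes stayed at -0.76. Upper-quartile scaling called 45.9% of all called genes higher, against 56.1% with TMM and 22.2% with library totals. Jak1 also passed with immunoglobulin genes removed (-0.24), a mean count of at least 50 (-0.26), no count filter (-0.26) and upper-quartile scaling (-0.29). Stat2 was at -0.001 without a filter and -0.026 with upper-quartile scaling. On log2 FPKM with pseudocount 1, then 0.1, then 1 without a filter, 2, 2 and 1 members were lower, 7, 7 and 6 pathway genes higher and 3, 3 and 1 lower, and 995, 967 and 435 genes of all higher and 586, 565 and 225 lower. There Stat5a (-0.40, -0.45 and -0.40) and Stat5b (-0.28, -0.29 and -0.28) did not pass, and Jak3 did not without the filter (-0.74, limma adjusted p = 0.0541). Length offsets left 5 pathway genes lower. Leaving out 1 library gave 2 to 5 members lower, 7 to 11 pathway genes higher and 3 to 12 lower, and 682 to 1882 genes of all higher and 507 to 1413 lower. Ranges were -0.32 to -0.20 for Jak1, -0.61 to -0.38 for Stat5a, -0.38 to -0.28 for Stat5b and -0.078 to 0.113 for Stat2, and the difference in family share was -1.07 to 1.87 percentage points for Stat4 and -0.97 to 0.50 for Stat5b. The causes were not tested. With 3 libraries a group, no exact permutation test can pass 0.05.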

Other observations

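Around the Stat gene cluster on chromosome 11, 17 further tested genes lie within 200 kb of either end. Of these, 1 fell (Cavin1, a caveola protein next to Stat3, log2 fold change -0.53, edgeR adjusted p = 0.0324) and 6 rose. The median of the 17 was 0.18. Among all tested genes, 7.89% fell and 10.1% rose. Beyond Cavin1, the rises were Atp6v0a1, a subunit of the vacuolar proton pump (0.55, edgeR adjusted p = 0.0289), Psmc3ip (0.38, 0.0251) and Tubg1 (0.33, 0.0207). On the Stat5b side they were Cnp (0.52, 0.0028), Dnajc7 (0.37, 0.00744) and Rab5c (0.31, 0.0126). The 3 STAT genes and Cavin1, all lower, follow each other among the tested genes there, and Cavin1 is the only one of the 17 that fell. These genes were looked at after the values of the cluster were seen.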
